A study of Mus musculus with 4 samples.

Results

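The GIMAP genes, or GTPases of immunity-associated proteins, were examined in RNA-Seq libraries of mouse B cells. The 8 genes of one cluster on chromosome 6, Gimap1 and Gimap3 to Gimap9, were chosen by symbol, and all 8 were found among the 20599 gene symbols of the deposited count files. Peritoneal B1a cells (2 libraries), innate-like B cells that renew themselves in the body cavities, were compared with splenic follicular B2 cells (2 libraries), the conventional recirculating B cells. B1a cells had been sorted as CD23- IgM+ CD5+ B cells from peritoneal washes, and follicular B2 cells as IgD hi IgM lo CD21+ B cells from the spleen.

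By the labels, all 4 libraries came from untreated, wild-type C57BL/6 mice of 4 weeks of age. The study's methods describe the controls as littermates of mice that carry a Cre allele active in B-lineage cells and floxed Dnmt3a alleles, and elsewhere name C57BL/6J mice as controls. Whether the controls carried Cre or a floxed allele is therefore not given, and the methods also make the follicular B2 donors older than the labels do. The groups thus differ in tissue and, going by the methods, in age as well as in cell type, and these cannot be told apart. Dnmt3a-deficient cells were not analysed here.

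GIMAP proteins are small guanine nucleotide-binding proteins found in vertebrates and expressed mainly in lymphocytes. Several are anchored to intracellular membranes, such as those of lysosomes, mitochondria and the endoplasmic reticulum. The family is best known for keeping resting lymphocytes alive. Loss of Gimap5 in rodents causes a severe shortage of T cells, and Gimap1 is required for the survival of mature T and B cells.

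Every GIMAP protein binds nucleotide through a P-loop, a short turn that wraps around the phosphate groups. The coding sequence of each P-loop is shown because the loop binds nucleotide and because the sequence shows which members are near copies. The capitals mark the codons of the loop, the lower-case letters are the flanking codons, and the genes follow their order along the chromosome. The sequences were read from GENCODE M21 transcripts of GRCm38.
Gimap8 loop 1: ctaGGGAAACAGGGCGCAGGCAAAAGTgcc
Gimap8 loop 2: atgGGGAAGCGTGGTGTTGGGAAAAGTgca
Gimap8 loop 3: ttgGGAAGGAGTGGGGCTGGAAAGAGTgca
Gimap9: gtaGGGAAGACTGGAAATGGGAAGAGTgct
Gimap4: cttGGAAAAACTGGAGCAGGAAAGAGTtca
Gimap6: gtgGGGAAAACAGGAAGCGGGAAAAGTgca
Gimap7: gtaGGGAAAACAGGAAGTGGAAAGAGCgcc
Gimap1: gtgGGCAGGACTGGGACCGGCAAGAGTgcc
Gimap5: gtgGGCAAATCTGGCTGCGGTAAAAGCgcc
Gimap3: gtgGGCAAATCTGGCTGCGGTAAAAGCgcc

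Gimap8 encodes a protein of 688 residues with 3 P-loops, whereas the other 7 proteins have 1 P-loop each and lengths between 291 and 328 residues. All the loops begin with a codon for glycine, and their marked part ends in a codon for serine. The stretches of Gimap3 and Gimap5 were identical. Over 898 aligned bases, the coding sequences of these 2 genes shared 89.9% of bases, while the next most similar of the 21 pairs without Gimap8, Gimap7 with Gimap9, shared 64.9%. Reads of Gimap3 and Gimap5 are therefore partly divided by estimation. Of all the 50-base windows of the transcripts, 9.06% in Gimap3 and 9.98% in Gimap5 were found in another member, and 0 in the other 6 members. With transcripts of any other gene counted, the share was 9.83% in Gimap3, 15.1% in Gimap5, 12.8% in Gimap1 and 2.62% in Gimap7. The deposited posterior standard deviations, which measure how uncertain the division of shared reads was within a library, were at most 0.190% of the count for Gimap3 and 0.946% for Gimap5.

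The cluster spans 123.666 kb of mm10 (chr6:48647186-48770851). From the centromeric side it holds Gimap8 (chr6:48647186-48660875), Gimap9 (chr6:48676121-48679116), Gimap4 (chr6:48684578-48692062), Gimap6 (chr6:48701583-48708244), Gimap7 (chr6:48718621-48724636), Gimap1 (chr6:48739047-48743795), Gimap5 (chr6:48746197-48754200) and Gimap3 (chr6:48764464-48770851). Gimap3 and Gimap6 lie on the reverse strand, and the other 6 genes on the forward strand. The transcripts shown have between 2 exons (Gimap7 and Gimap9) and 5 exons (Gimap3 and Gimap8). In GENCODE M21, a read-through gene, Gm28053 (chr6:48718607-48752644), overlaps Gimap7, Gimap1 and Gimap5, and an antisense transcript, Gimap1os (chr6:48738346-48741444), overlaps Gimap1. Neither was analysed here as a gene of its own. Gm28053 lies on the forward strand, as do the genes it overlaps, so its reads cannot be told apart from theirs by strand. Whether the counting used strand is not given in the sources used here, so reads of Gimap1os and Gimap1 cannot be told apart either.

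Library totals lay between 11032732 and 18588623 counts, and the members held between 179 and 9874 counts in a library, far above the floor of 3 counts (0.161 to 0.272 CPM). The B1a replicates differed more from each other than the B2 replicates did. On the CPM scale, which divides counts by the TMM-scaled library total, 7226 genes had a mean of 20 or more. Among them, the median fold between replicates was 1.28 in B1a cells and 1.11 in B2 cells. The sorted populations carried their markers. Of the B1a sorting and identity genes, Spn, Itgam, Zbtb32 and Bhlhe41 were higher in B1a cells, and Cd5 had 15.9 and 22.4 CPM in B1a against 5.46 and 2.25 CPM in B2 (adjusted p = 0.146). Fcer2a and Cr2, which encode CD23 and CD21, were higher in B2 cells. Genes that define B cells were detected in every library; Cd79a, Ms4a1 and Blk were higher in B1a cells, Pax5, Cd22 and Ebf1 were higher in B2 cells, and Cd79b (adjusted p = 0.125) did not pass the test.

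GIMAP transcripts were abundant in both cell types. Summed over the family, they amounted to 2668 and 2843 TPM, a level corrected for transcript length and scaled to the same total in every library, in the B1a libraries and 2911 and 2892 TPM in the B2 libraries. This was 0.267% and 0.284% of all transcripts in B1a and 0.291% and 0.289% in B2 cells. The mean was 2756 ± 124 TPM in B1a and 2901 ± 13.2 TPM in B2 cells (SD, n = 2 each). On the TPM scale the B2 libraries lay above both B1a libraries. The CPM scale is not corrected for length and is scaled between libraries by TMM. On it the B2 libraries lay below, with 2107 and 2303 CPM in B1a and 1986 and 1993 CPM in B2 cells. As a share of all counts, without TMM, the groups overlapped, with 0.203% and 0.222% in B1a and 0.208% and 0.205% in B2 cells. The direction of the family total thus depended on the scale, and which part of the scaling made the difference was not tested. With 2 libraries against 2, an exact permutation test cannot give a p below 0.333, and the difference in the totals was not tested further.

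**Figure D1:**
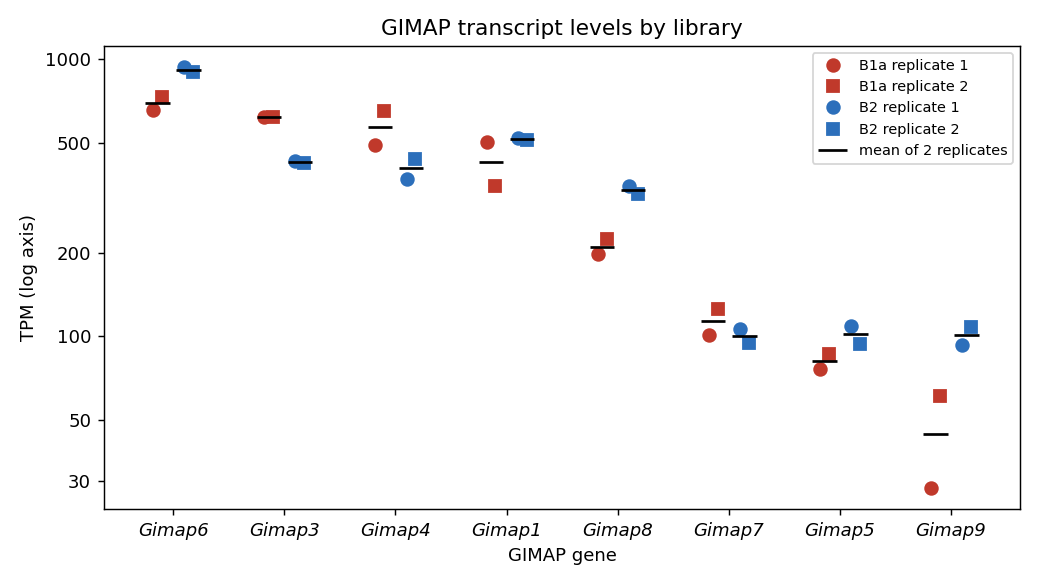
TPM (log axis) of the 8 GIMAP genes in each library, with B1a in red, B2 in blue, replicate 1 as a circle, replicate 2 as a square and a black line at the mean of 2 replicates. Gimap6 is highest in all 4 libraries, Gimap3 and Gimap4 lie higher in B1a cells, and Gimap8 and Gimap9 lie higher in B2 cells.

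Mean levels within the family ran from 44.5 to 693 TPM in B1a and from 100.5 to 917 TPM in B2 cells. Gimap6, which binds a member of the GABARAP family of autophagy proteins, was the most abundant member in both cell types, with 656 and 730 TPM in B1a and 937 and 897 TPM in B2 cells. Its mean level stood at percentile 98.6 of the 12078 genes tested for differences in B1a and 98.9 in B2 cells. In B1a cells it was followed by Gimap3 (618 ± 0.445 TPM), Gimap4 (570 ± 113 TPM) and Gimap1 (425 ± 107 TPM), and these 3 neighbours in the order overlapped in their ranges. Below them came Gimap8 (211 ± 19.0 TPM), Gimap7 (114 ± 17.1 TPM), Gimap5 (81.2 ± 7.19 TPM) and Gimap9 (44.5 ± 22.9 TPM), each apart from the next.

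In B2 cells the order below Gimap6 was a different one. Gimap1 was the second most abundant member (516 ± 4.45 TPM), apart from Gimap3 (426 ± 4.12 TPM). Gimap3 overlapped with Gimap4 (404 ± 47.8 TPM), and Gimap8 (336 ± 16 TPM) stood apart from both its neighbours. Gimap5 (102 ± 10.7 TPM), Gimap9 (101 ± 10.8 TPM) and Gimap7 (100.5 ± 8.07 TPM) could not be ordered, since their ranges overlapped. All levels in this order are means of 2 libraries with their SD.

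Differences between the cell types were tested across 12078 genes with edgeR's quasi-likelihood test. It called 5.74% of all genes at an adjusted p under 0.05, 4.24% as higher in B1a and 1.5% as higher in B2 cells. Of the 8 GIMAP genes, 1 was called higher in B1a cells (Gimap3) and 0 were called higher in B2 cells. At an unadjusted p under 0.05 the count was 3 (Gimap3, Gimap4 and Gimap8), against 20.9% of all genes tested. The median log2 fold change (B1a minus B2) was -0.06 for the members and -0.03 for all genes tested. Members moved both ways, with 3 above and 5 below 0. The CPM ranges of the groups did not overlap for 6 of 8 members, 3 in each direction, against 54.3% of all genes tested, a background that leaves little to read from that count.

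**Figure D2:**
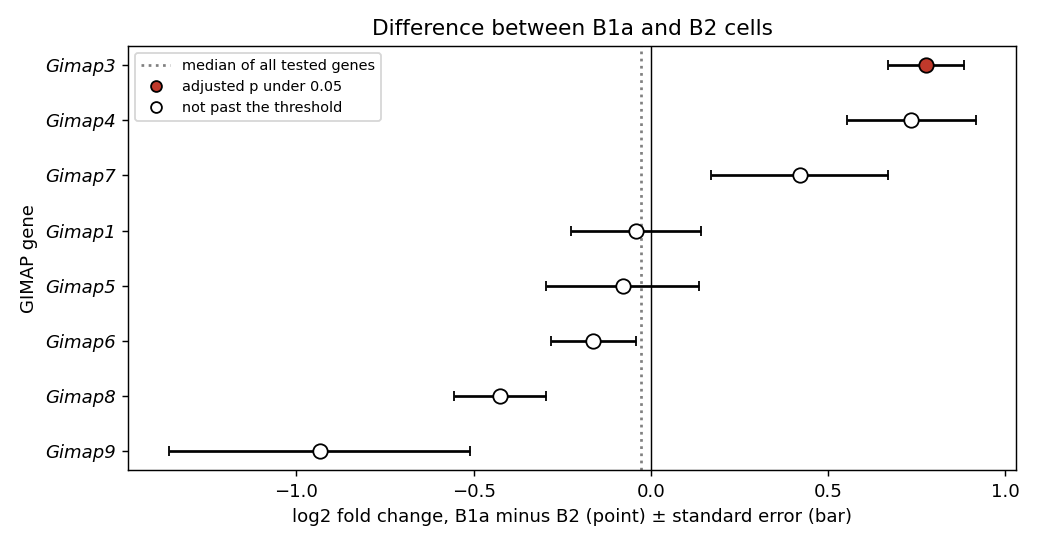
Log2 fold change (B1a minus B2, edgeR) of each GIMAP gene with its standard error, the dotted line marking the median of all genes tested (-0.03). Gimap3 (0.78) is the filled point past the threshold, and Gimap9 (-0.93) has the widest error.

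Gimap3 was the called member of the family. Its protein is anchored to membranes of the endoplasmic reticulum and mitochondria, and its human counterpart is a pseudogene. It had 555 and 568 CPM in the B1a libraries and 327 and 328 CPM in the B2 libraries. Both B1a values lay above both B2 values, and replicates differed by at most 1.02-fold. The mean was 561 ± 9.53 CPM for B1a and 328 ± 0.497 CPM for B2 libraries (SD, n = 2 per group). Gimap3 was 1.71-fold higher in B1a cells (log2 fold change 0.78, SE 0.108, adjusted p = 0.0151, edgeR). It passed the threshold under 8 of 10 other analyses of all 4 libraries. It missed the threshold on both TPM scales, with an adjusted p of 0.0584 and a log2 fold change of 0.53 in limma on log2(TPM + 1), and in the fits without B2 replicate 1 (0.0544) and without B2 replicate 2 (0.0535). In bulk samples, a larger share of cells with a transcript and more RNA for each cell cannot be told apart.

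Gimap5, the near copy of Gimap3 on the neighbouring position and opposite strand, did not follow it. Its protein resides on lysosomes and is needed for the survival of T cells and haematopoietic progenitors. It had 61.7 and 71.7 CPM in B1a and 75.2 and 65.8 CPM in B2 cells, so that the groups overlapped by CPM (log2 fold change -0.08, SE 0.215, adjusted p = 0.893). By TPM the groups did not overlap, with 76.2 and 86.3 TPM in B1a and 109 and 94.0 TPM in B2 cells. The TPM of Gimap3 was 8.12 and 7.15 times that of Gimap5 in the B1a libraries and 3.93 and 4.5 times in the B2 libraries. The ratio was thus higher in both B1a libraries, and as a ratio within a library it does not depend on how libraries were scaled. The ratio had no test of its own, and the part of reads divided between the near copies was not tested.

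Gimap4 showed a difference of nearly the same size with a larger error. Gimap4 is known to hasten the death of T cells once apoptosis has been triggered. Its values were 369 and 484 CPM in B1a and 230 and 282 CPM in B2 cells, without overlap. The log2 fold change was 0.74 (1.66-fold, SE 0.182), and the adjusted p of 0.0871 did not pass. Under the other 10 analyses it passed 6 times, with adjusted p values between 2.15e-04 and 0.195. It also passed when B1a replicate 1, B1a replicate 2 or B2 replicate 2 was left out. A fit without a B1a library assumes that the lone one varies like the B2 libraries.

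Gimap7, whose human product hydrolyses GTP upon dimerisation, had 52.5 and 66.7 CPM in B1a and 46.8 and 42.4 CPM in B2 cells. Both B1a values were the higher ones by CPM, but the ranges overlapped by TPM, and the test did not pass (log2 fold change 0.42, SE 0.249, adjusted p = 0.420). It passed without B1a replicate 1 (log2 fold change 0.58, adjusted p = 0.0330) and did not pass without B1a replicate 2 (0.24, adjusted p = 0.386).

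Gimap8 and Gimap9 lie side by side at the other end of the cluster and had lower values in B1a cells. Gimap8, the member with 3 GTPase domains, had 306 and 356 CPM in B1a and 457 and 432 CPM in B2 cells. Both B1a values lay below both B2 values, with a log2 fold change of -0.43 (SE 0.129), which did not pass after adjustment (adjusted p = 0.141). It passed under 2 of 10 other analyses and without either B1a library. Gimap9, a short member with a single P-loop, had 16.1 and 35.3 CPM in B1a and 44.9 and 53.1 CPM in B2 cells. It had the largest fitted change of the family (log2 fold change -0.93, SE 0.426) and also the largest spread, since its B1a replicates differed 2.20-fold, and its adjusted p was 0.291. Gimap9 passed under 0 of 10 other analyses, but passed without B1a replicate 2 (log2 fold change -1.61, adjusted p = 1.83e-08). Without B1a replicate 1 the log2 fold change was -0.48 (adjusted p = 0.118).

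For Gimap6 and Gimap1, 2 abundant members, no difference passed the test. Gimap6 had 437 and 499 CPM in B1a and 531 and 516 CPM in B2 cells (log2 fold change -0.16, SE 0.120, adjusted p = 0.528). The groups did not overlap, but lay close together. Gimap1 had 310 and 222 CPM in B1a and 274 CPM in both B2 libraries, so that the B1a values fell on either side of the B2 values by CPM (log2 fold change -0.04, SE 0.183, adjusted p = 0.934). By TPM, both B1a values of Gimap1 (500.5 and 350 TPM) lay below both B2 values (519 and 512 TPM). Without B1a replicate 2 its log2 fold change was 0.18. These tests do not show that the levels were equal.

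The 3 members with a positive and the 3 uncalled members with the largest negative change (Gimap9, Gimap8 and Gimap6) kept their sign in every alternative analysis and with each library left out. The sign of Gimap1 and Gimap5 did not hold. On the log2(TPM + 1) scale the fold change of the typical gene was lower by 0.25 than with TMM, so that values of members on that scale have to be read against this shift.

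**Figure D3:**
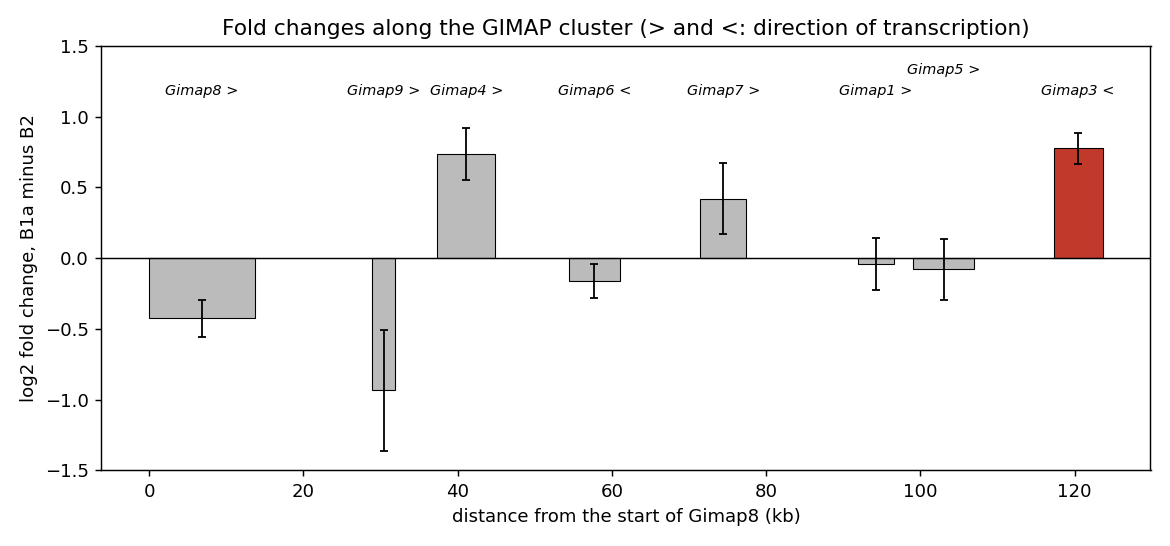
Log2 fold change (B1a minus B2) with its standard error for each GIMAP gene, drawn as a bar over the gene's extent in kb from the start of Gimap8, with the direction of transcription after each name and red for an adjusted p under 0.05. Negative and positive values are interspersed along the cluster, from Gimap8 (-0.43) and Gimap9 (-0.93) at the left to Gimap3 (0.78) at the right.

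Position in the cluster did not sort the members into a block. Gimap9, with 1.91-fold higher values in B2 cells, is separated by 5.46 kb from Gimap4, with 1.66-fold higher values in B1a cells. Gimap3 and Gimap6, the 2 genes on the reverse strand, had fold changes of opposite sign. Outside the cluster, 19 other genes were listed within 500 kb, of which 7 had 0 counts in every library and 10 were tested. Of these, 0 were called by edgeR, 2 had an unadjusted p under 0.05, and DESeq2 called 2. Tested neighbours had a median log2 fold change of -0.09. None of the neighbours reached the level of the abundant members, the highest mean being 125 TPM. The nearest neighbours were Zfp775, 25.6 kb before Gimap8 (log2 fold change -0.92, SE 1.07, adjusted p = 0.713), and Tmem176b, 63.0 kb after Gimap3 (log2 fold change 2.36, SE 0.713, adjusted p = 0.139).

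**Figure D4:**
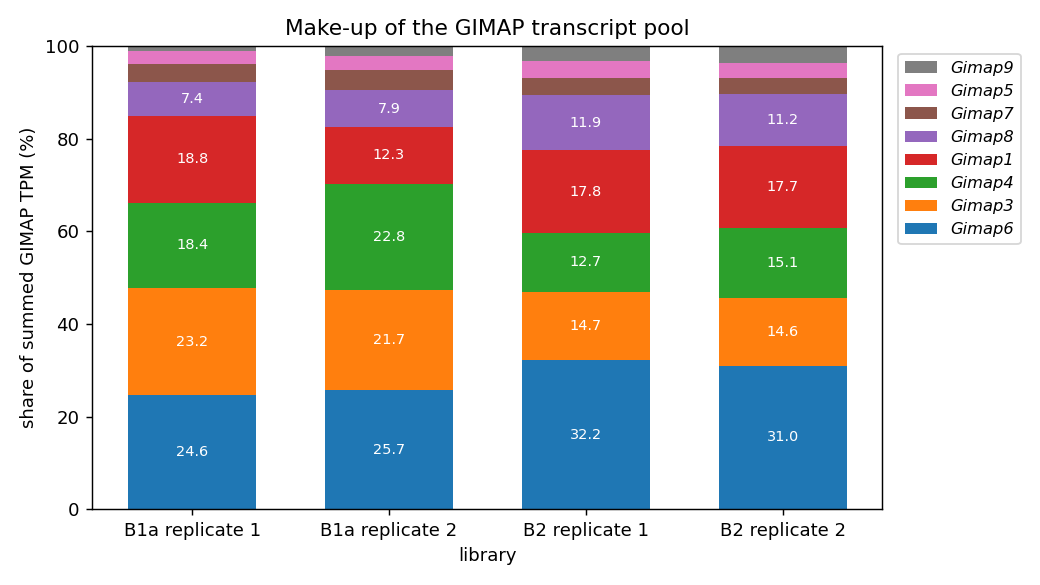
Share (%) of the summed GIMAP TPM that each member holds in each of the 4 libraries, stacked to 100. Gimap3 holds 23.2% and 21.7% in the B1a libraries and 14.7% and 14.6% in the B2 libraries, while Gimap6 and Gimap8 hold less in B1a than in B2 libraries.

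The make-up of the pool was described by shares of the family's own transcripts, which do not depend on the scaling between libraries. Gimap3 made up 23.2% and 21.7% of GIMAP transcripts in B1a and 14.7% and 14.6% in B2 cells. Gimap4 made up 18.4% and 22.8% in B1a and 12.7% and 15.1% in B2 cells. The shares of these 2 genes were higher in both B1a libraries than in either B2 library. Gimap6 went from 24.6% and 25.7% in B1a to 32.2% and 31.0% in B2 cells, and Gimap8 from 7.40% and 7.88% to 11.9% and 11.2%. Gimap9 held 1.06% and 2.13% in B1a and 3.20% and 3.75% in B2 cells. Gimap7 held 3.80% and 4.42% in B1a and 3.65% and 3.28% in B2 cells, also higher in both B1a libraries. Gimap5 held 2.86% and 3.04% in B1a and 3.75% and 3.25% in B2 cells, lower in both B1a libraries. For Gimap1 the groups overlapped, with 18.8% and 12.3% in B1a and 17.8% and 17.7% in B2 cells. Shares that add to 100 are not independent of one another, and no test was made of them.

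The 250 bases before the transcription start are shown for Gimap3, the called member, for Gimap9, with the largest fitted change, and for Gimap1, with the smallest. They were taken from RefSeq (GRCm38.p6) and are written along the strand of the gene. All 8 members were matched, Gimap8 with 2 starts. The windows of Gimap8 and Gimap9 run past the first base of the gene as placed above, so that their last bases lie inside the gene. Capitals mark matches on either strand to AGGAAG (a form of the ETS factor motif), TGTGGT (RUNX) or GTAAACA (FOXO). They were searched because factors of these families are active in lymphocytes. Other forms of the motifs were not searched. Matches on the opposite strand read as the reverse complement.
Gimap3, chr6:48770852-48771101, reverse strand: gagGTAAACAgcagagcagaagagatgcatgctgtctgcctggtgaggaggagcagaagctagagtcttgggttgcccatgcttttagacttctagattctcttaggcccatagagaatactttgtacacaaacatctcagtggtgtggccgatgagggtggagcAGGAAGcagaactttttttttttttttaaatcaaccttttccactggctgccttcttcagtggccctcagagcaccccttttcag
Gimap9, chr6:48675885-48676134, forward strand: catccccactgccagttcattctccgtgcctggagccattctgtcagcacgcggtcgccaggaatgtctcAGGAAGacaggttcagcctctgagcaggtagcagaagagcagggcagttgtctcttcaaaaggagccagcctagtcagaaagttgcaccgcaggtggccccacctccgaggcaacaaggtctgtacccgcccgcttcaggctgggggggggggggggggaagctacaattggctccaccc
Gimap1, chr6:48738797-48739046, forward strand: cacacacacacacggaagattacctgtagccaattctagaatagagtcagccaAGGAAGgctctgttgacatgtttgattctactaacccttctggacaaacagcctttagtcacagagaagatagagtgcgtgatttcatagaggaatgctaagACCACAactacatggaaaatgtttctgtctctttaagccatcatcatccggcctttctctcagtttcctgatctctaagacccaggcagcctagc

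AGGAAG was found before 7 of 8 members, all but Gimap6, and in 29.5% of 32851 mouse promoter windows of the same length. The window of Gimap6 held the letters gcggaagtg, which the search for AGGAAG could not match. The lack of AGGAAG before Gimap6 therefore does not show that it lacks an ETS motif. TGTGGT was found before Gimap1, Gimap4 and Gimap7 (14% of all windows), and GTAAACA before Gimap3 (3.17% of all windows). Gimap9 held 8 CpG dinucleotides in this window and the other members between 1 (Gimap3) and 3, against a median of 6 in all windows. A match of letters is a description and does not show binding. The letters AGGAAG were found before the called member and before 6 of the 7 uncalled members, and GTAAACA before the called member alone. For Gimap8 the AGGAAG match lay only in the window of the later start (chr6:48647111-48647360), inside the gene as placed above. Gimap8 was searched in more than a single window, whereas the share over all promoters is per window.

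T cells also express the GIMAP family, and T-cell transcripts were therefore examined beside the members. Of 18 T-cell genes, Cd4, Thy1, Il7r and Cd28 were at 0 counts in both B1a libraries and had between 1.39 and 5.38 CPM in the B2 libraries. Trat1 had 2 counts in B2 replicate 1 and 0 in the other 3 libraries. Genes at 0 counts numbered 7 and 5 in the B1a libraries, and 0 and 1 in the B2 libraries. The genes of the CD3 complex, Cd3d, Cd3e and Cd3g, summed to 27.6 and 19.3 CPM in B1a and 20.04 and 20.13 CPM in B2 cells, beside 1986 CPM or more of the GIMAP family.

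The whole T-cell list summed to 738 and 601 CPM in B1a and 269 and 329 CPM in B2 cells, mostly through Cd2, an adhesion receptor and the single called gene of the list (log2 fold change 1.71, adjusted p = 0.00592, edgeR). Without Cd2 the sums were 180 and 110 CPM in B1a and 132 and 146 CPM in B2 cells, so that the groups overlapped. Of the list, 17 genes were tested, 1 was called higher in B1a and 0 higher in B2 cells, with a median log2 fold change of -0.33. Lck, a kinase that B1a cells express as well, had 56.5 and 45.1 CPM in B1a and 44.5 and 39.7 CPM in B2 cells. Cd8a and Cd8b1 had between 4.32 and 23.8 CPM in the 4 libraries, and Cd247, Zap70, Lat, Tcf7 and Bcl11b between 0 and 18.4 CPM. The part of T-cell RNA in the levels of single members was not tested.

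Markers of other cell types were examined in the same way. Of 6 natural killer cell genes, all were at 0 counts in both B1a libraries, and they summed to 4.16 and 2.09 CPM in the B2 libraries. Of 7 endothelial genes, Tie1 and Emcn were at 0 in every library and Cdh5 was at 0 in both B1a libraries, while Pecam1, which B cells also express, made up nearly all of the sums of 256 to 337 CPM. The 5 megakaryocyte and platelet genes summed to between 0.836 and 7.80 CPM. The 9 macrophage genes were higher as a sum in B1a cells, with 225 and 262 CPM against 67.4 and 77.3 CPM in B2 cells. All 9 were tested, and 1 of them, Lyz2, was called higher in B1a cells, with a median log2 fold change of 1.72. Their part in the GIMAP levels was not tested. The natural killer, endothelial and platelet lists had 1, 3 and 2 genes tested, of which 0 were called; their medians rested on few genes and are not read.

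Genes reported to work with GIMAP proteins were examined next. They comprise Bcl2 family members, the kinase Gsk3b and the GABARAP and LC3 proteins of autophagy. Of these 10 genes, all were tested and 0 were called in either direction by edgeR, with a median log2 fold change of 0.13. Their sums were 876 and 891 CPM in B1a and 775 and 759 CPM in B2 cells.

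Other GTPase families were set beside the GIMAP genes. Septins, cytoskeletal GTPases related to the GIMAP proteins by structure, had 9 of 13 genes tested, and 1 was called higher in B1a cells, Sept11 (log2 fold change 1.32, adjusted p = 0.00440). Their median log2 fold change was 0.30. Of the guanylate-binding proteins, which are induced by interferon and act in defence against intracellular pathogens, 8 of 11 were tested. Gbp2 (log2 fold change 2.78, adjusted p = 0.00585), Gbp7 (2.07, 0.00605) and Gbp3 (1.61, 0.0141) were called higher in B1a cells, and Gbp9 (-1.58, 0.0168) was called higher in B2 cells. Their median was 1.19. Of the immunity-related GTPases, 7 of 8 were tested and 0 were called, with a median of -0.43. In this fit the log2 fold changes of the GIMAP genes lay between -0.93 and 0.78, while Gbp2 reached 2.78; under the other 10 analyses that of Gimap9 went down to -1.28. Whether the families differed was not tested.

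**Figure D5:**
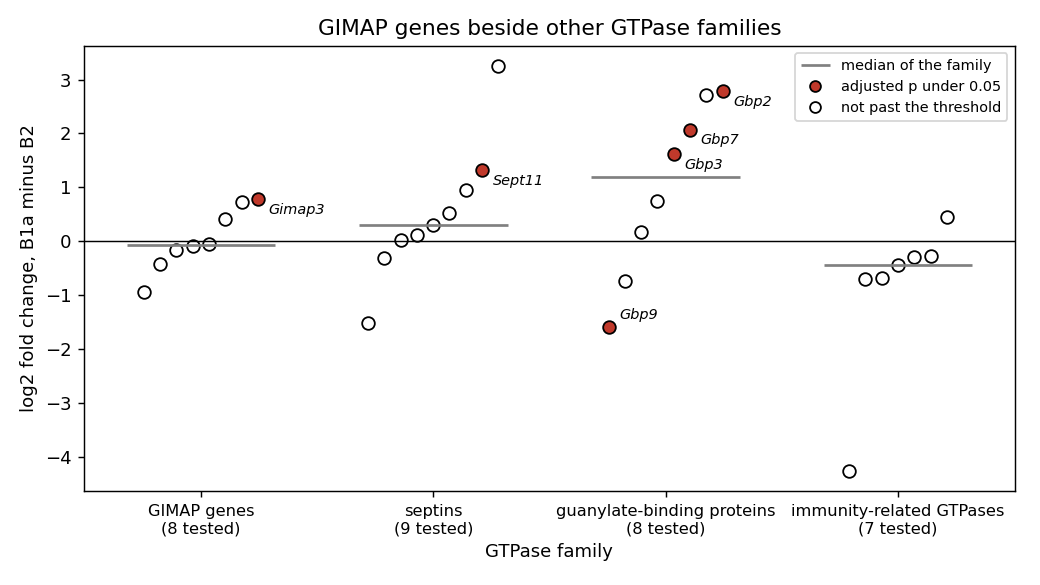
Log2 fold change (B1a minus B2) of the tested genes of 4 GTPase families, each point a gene, filled for an adjusted p under 0.05, with a grey line at the family's median. The GIMAP genes lie between -0.93 and 0.78, and the called guanylate-binding proteins between -1.58 and 2.78; the lowest point, Tgtp2, had 0 counts in 1 B1a library.

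The genes whose pattern over the 4 libraries was nearest to the mean of the 8 members were Arhgef3, Cobll1, Ociad1, Pou2f1 and Tsc22d2, by Euclidean distance of centred log2 CPM among 7218 genes whose mean CPM was 20 or more. That mean profile was flat, with -0.12 and 0.14 in the B1a libraries and -0.01 and -0.0041 in the B2 libraries. The 5 genes had log2 fold changes of at most 0.03. Over 4 libraries such a likeness is a description, and since the members moved in both directions their mean profile stood for no single member.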

How the data were processed

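RNA was sequenced from sorted peritoneal B1a and splenic follicular B2 cells (2 libraries each). Alignment by the authors was to mm10, and RefSeq genes were quantified with RSEM (1.2.29 in the submitters' processing notes; the paper names another version). Each of the 21970 deposited entries holds an expected count, in which shared reads are divided between genes, as well as TPM and FPKM; FPKM was not used. The deposited signal column of posterior standard deviations gives the uncertainty of that division.

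Expected counts of one symbol were added and rounded. After filterByExpr and TMM scaling, 12078 genes were tested with edgeR 4.0.16 under R 4.3.3 (quasi-likelihood, Benjamini-Hochberg adjustment at 0.05). The paper's methods name EBSeq, which was not run. Standard errors were taken from the F statistic, and the common biological coefficient of variation was 0.507. The fit was tested on simulated data. The labels do not say that replicates are separate mice, whereas the paper's methods name 2 control mice per cell type. Floors of 3 counts cover counting error only.

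Members, gene lists and motifs were chosen with earlier results of these data known. All members are given; of the lists, the called genes and the T-cell, B-cell and sorting genes are named (2 of them are not reported here); of genes within 500 kb, called ones and the nearest on each side; and the 5 genes nearest in pattern. Tie1, Emcn, Cdh5, Pecam1, Gsk3b and Tgtp2 were named after their values were seen. Alternatives were DESeq2 1.42.0, upper quartile scaling, limma-voom (limma 3.58.1), a minimum of 10 counts per library, a minimum of 1 count in any, unsummed entries, limma on log2(TPM + 1) and log2(TPM + 0.1) for a mean TPM of at least 1, a replicate block, a log2 fold change of at least 1, a window of 250 kb and each library left out; limma-voom with cell type weights was chosen after seeing the data.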

Additional observations from a re-analysis of the deposited data

How the results depend on the processing

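The number of GIMAP genes called, 1 of 8 with edgeR, was 3 with DESeq2, 2 each with limma-voom, limma-voom with cell type weights (chosen after seeing the data), a minimum of 10 counts in every library and no filter beyond 1 count, and 0 each with limma on log2(TPM + 1), limma on log2(TPM + 0.1) and a log2 fold change of at least 1. Over all genes, 693 were called with edgeR, 1550 with DESeq2, 1141 without a filter, 359 with log2(TPM + 0.1) and 1415 with cell type weights. Of the genes within 500 kb, 0 were called with edgeR, 2 with DESeq2, and 1 each with at least 10 counts and with cell type weights. Of the 16 places in the order of levels, 7 remained with CPM in place of TPM, which does not correct for transcript length.

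With 1 library left out, between 0 and 4 GIMAP genes, between 539 and 6143 genes in all and between 0 and 4 neighbours were called. The high values came without B1a replicate 1 (3953 genes, 4 GIMAP genes) and without B1a replicate 2 (6143 genes, 4 GIMAP genes), where the lone B1a library is assumed to vary like the B2 libraries, whose replicates were closer; 0 GIMAP genes were called without B2 replicate 1. With 1 library left out, the log2 fold change of Gimap5 lay between -0.19 and 0.024 (0.024 without B1a replicate 1, 0.019 without B2 replicate 1) and that of Gimap1 between -0.30 and 0.18 (0.18 without B1a replicate 2); none of these passed. Of the other values of single members, 90 kept their direction and side of the threshold, 15 gained a call and 4 lost one. The difference in summed TPM (-146, B1a minus B2) lay between -234 and -57.8 with 1 library left out.

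Replicates share only a number: with a replicate block, 3 GIMAP genes (Gimap3, Gimap4 and Gimap8) and 1481 genes in all were called, and the deviations of same-numbered libraries correlated at r = -0.03 across genes. The causes of these changes were not tested. The members had at least 179 counts in every library, and whether depth or the number of libraries limited the calls was not tested.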
